A study of Homo sapiens with 12 samples.

Results

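The 10 genes described here, PPP1R1B, STARD3, TCAP, PNMT, PGAP3, MIEN1, GRB7, IKZF3, GSDMB and ORMDL3, are neighbours of ERBB2 on the long arm of chromosome 17. They were taken by name for that position, and every probe set that the array annotation gives to 1 of them alone was used, 16 of 54675 probe sets. They are 10 of 19775 measured genes. Where a gene had several probe sets, the one brightest on average over the 12 arrays was used for its call, and in a RefSeq gene table they stand in the order PPP1R1B, STARD3, TCAP, PNMT, PGAP3, ERBB2, MIEN1, GRB7, IKZF3, GSDMB, ORMDL3, with ZPBP2 the only other measured gene between the first and the last. The annotation bears out the label as neighbours. DNA copy number was not analysed here, so the word amplicon is background knowledge of the cell line and not a measurement.

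The study compared 4 lines made from SKBR-3, a human HER2-positive breast cancer line, with 3 biological replicates and 1 array per replicate. SKR6LR is SKR6 kept for several months in lapatinib, which blocks the kinases HER2 and EGFR, at doses raised from 0.2 to 5 µM. SKR6CA is SKR6 with a retrovirus for a constitutively active p65 (RELA), a subunit of NF-kB. SKR6-Vector is SKR6 with the empty retroviral vector pQCXIP, selected with puromycin, and SKR6 itself is the part of SKBR-3 sorted for raised HER2. All 4 lines thus share the sort for HER2, the product of ERBB2, and were grown for 48 hours before RNA was taken. The culture notes name cells "SKLR" that were held in 0.2 µM lapatinib; that name is not among the 4 lines, so whether SKR6LR was under the drug at harvest is not settled by the labels. Whether a line's replicates were separate derivations is not given either.

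Many HER2-positive breast cancers gain extra copies of a stretch of chromosome 17 around ERBB2, and genes close to it are copied along and often transcribed at high levels. The core of this stretch, from STARD3 to GRB7, usually travels with ERBB2, while genes farther out are included in some tumours only. The neighbours have unrelated jobs: signalling, lipid handling, a muscle protein, an adrenal enzyme, a cell death protein and a lymphoid transcription factor.

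Promoter sequences of ERBB2, of PGAP3, whose window overlaps that of ERBB2, and of STARD3 are shown. MIEN1 and ORMDL3 also have windows, which are not printed. The RefSeq promoter table (GRCh38.p14) held 6 windows for 4 of the 10 genes, STARD3, PGAP3, MIEN1 and ORMDL3, and 1 for ERBB2. Each window has 300 bases around a transcription start, which counts as position 1. The genes named for display were GRB7, STARD3, IKZF3 and ERBB2, and of these the table held windows for STARD3 and ERBB2. PGAP3 was added after its overlap with ERBB2 was seen. The names were chosen with earlier results of these data known, and all genes with windows were lower in SKR6LR. Capitals mark matches to the motifs listed after the sequences.

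STARD3, chr17:39636894-39637193, plus strand: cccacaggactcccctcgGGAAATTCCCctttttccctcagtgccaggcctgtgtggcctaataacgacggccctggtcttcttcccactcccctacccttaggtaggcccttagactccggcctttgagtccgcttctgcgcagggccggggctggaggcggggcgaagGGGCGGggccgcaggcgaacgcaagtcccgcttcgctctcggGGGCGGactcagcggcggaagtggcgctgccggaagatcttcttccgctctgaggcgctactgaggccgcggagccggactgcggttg
PGAP3, chr17:39688008-39688307, minus strand: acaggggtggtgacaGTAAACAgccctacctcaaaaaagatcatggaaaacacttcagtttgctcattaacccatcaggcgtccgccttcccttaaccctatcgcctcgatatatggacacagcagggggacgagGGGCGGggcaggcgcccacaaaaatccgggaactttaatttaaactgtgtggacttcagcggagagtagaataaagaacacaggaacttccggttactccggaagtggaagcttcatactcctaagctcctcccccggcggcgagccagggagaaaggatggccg
ERBB2, chr17:39687844-39688143, plus strand: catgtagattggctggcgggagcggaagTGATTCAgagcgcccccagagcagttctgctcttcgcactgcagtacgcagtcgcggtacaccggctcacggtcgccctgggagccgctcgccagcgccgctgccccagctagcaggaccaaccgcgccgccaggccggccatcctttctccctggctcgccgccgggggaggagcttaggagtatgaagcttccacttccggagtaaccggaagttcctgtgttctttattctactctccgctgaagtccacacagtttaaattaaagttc

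The ERBB2 and PGAP3 windows overlap by 136 bases, from chr17:39688008 to chr17:39688143, and are read on opposite strands. The starts on which these windows are placed thus lie close together and are read in opposite directions. Any other start of ERBB2 had no window and is not covered. The search covered both strands for a loose and a stricter NF-kB consensus, an interferon response consensus, AP-1 (TGANTCA), FOXO (GTAAACA), the E-box CACGTG, the GC box GGGCGG and TATAAA. The stricter NF-kB consensus matched once among the windows shown, in STARD3 on the opposite strand at position -232. It was present in 1.4% of all 35116 promoter windows in the table, and it overlaps 2 matches of the loose form, which 58.7% of windows hold and which is not marked. The FOXO letters stand at -235 in PGAP3 (3.42% of windows) and the AP-1 letters at -222 in ERBB2 (7.71% of windows). GC boxes stand at -80 and -38 in STARD3 and at -115 in PGAP3, a motif in 45% of windows. The interferon response, E-box and TATA letters, in 3.57%, 7.26% and 11.5% of all windows, were not in these 3. A match is a run of letters only, with no measurement of binding.

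All values are log2 RMA values. Array medians lay between 5.74 and 5.77, and all values between 3.00 and 15.28. The SKR6LR arrays stood apart from the rest: they correlated at 0.914 to 0.933 with arrays of the other lines, against 0.988 to 0.990 among the other lines. SKR6LR replicates also spread more (root mean square SD 0.209, against 0.107 in SKR6CA, 0.0965 in SKR6-Vector and 0.0958 in SKR6), and its replicate 3 had the highest actin 3′ minus 5′ value, a sign of RNA quality, 2.32 against 1.03 to 1.73 on all other arrays. Of 6 luminal breast markers, 5 lay above the median level of the table in every line, and the cadherin CDH1 stayed at 4.24 to 4.28. Of these 6, KRT8 (0.45) and KRT18 (0.63) were called higher in SKR6LR against SKR6, and KRT19 (-0.94) and ERBB2 (-1.38) lower. In these bulk cultures, fewer cells with a transcript and less transcript per cell cannot be told apart.

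**Figure D1:**
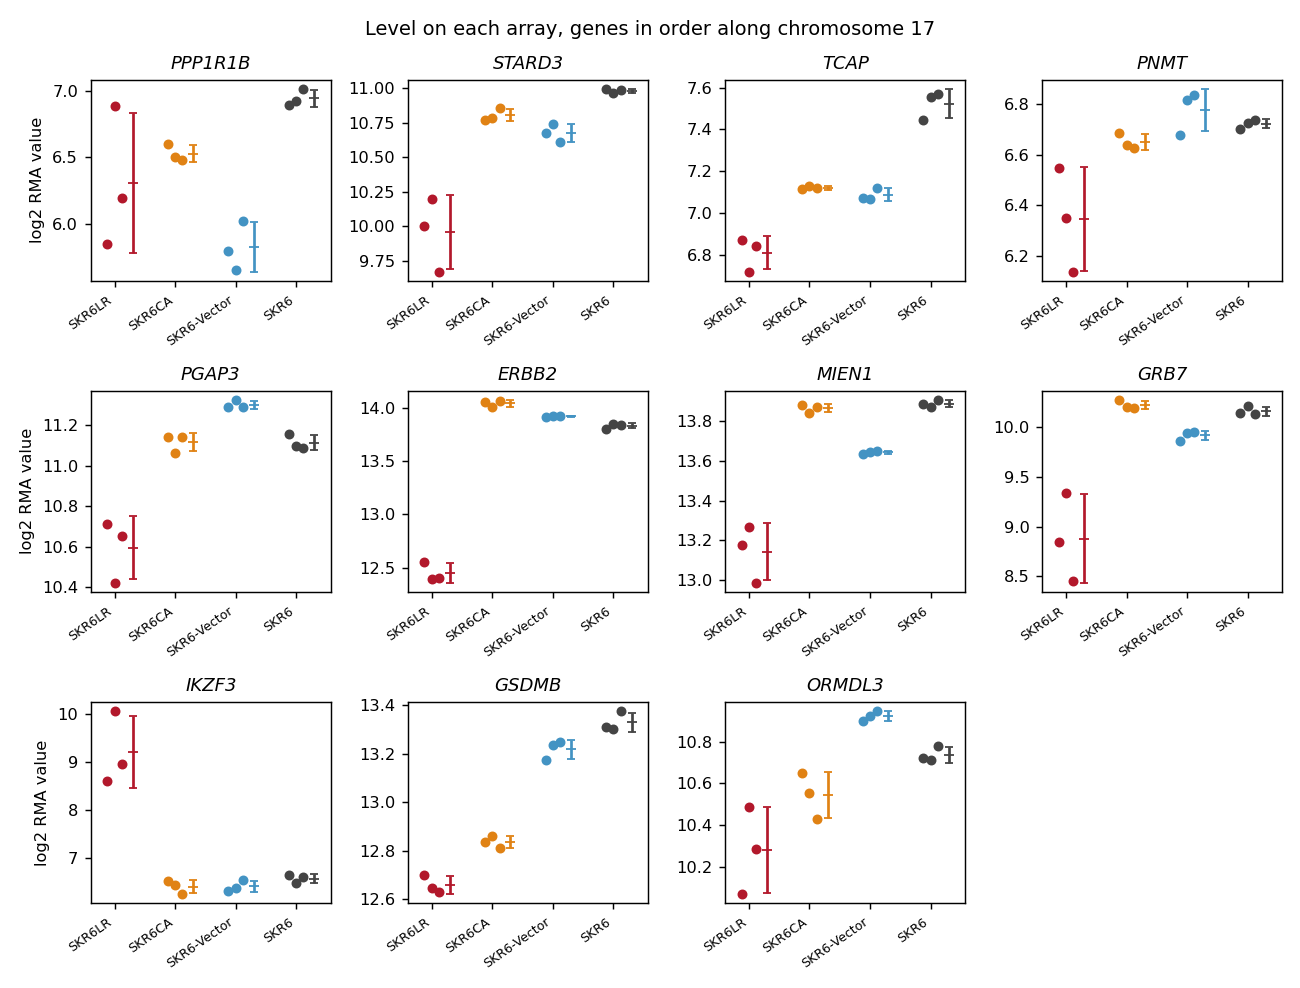
Level of ERBB2 and its 10 neighbours on each of the 12 arrays (vertical axes, log2 RMA value, scaled per gene), by line from SKR6LR to SKR6; dots are arrays, and the bar beside them is the mean ± SD (n = 3). SKR6LR lies below SKR6 in every panel except IKZF3, where its 3 arrays stand at 8.61 to 10.06 and all other arrays at 6.25 to 6.64.

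The first comparison, SKR6LR with SKR6, asked how long selection in lapatinib changed these genes. Of the 10 genes, 9 fell, by 0.38 to 1.28 on the log2 scale, and IKZF3 rose by 2.64. GRB7 (-1.28) and STARD3 (-1.02) had the largest falls of the 10, beside -1.38 for ERBB2 itself. By comparison, 29.8% of all genes were called lower and 20.8% higher in SKR6LR (limma, Benjamini-Hochberg adjusted p under 0.05 over all probe sets). The median difference of the 10 genes was -0.65, against -0.058 over all genes. These sets differ in level: all 10 genes lay above the median level of the table, against 12437 of all 19775 genes. Whether genes of like level shifted as far was not tested, here or in later comparisons with all genes. With cyclic loess, another scaling of the arrays, all 10 calls were kept but all 9 falls were smaller. The differences were then -0.36 for PGAP3, -0.52 for GSDMB and -0.30 for ORMDL3. In all 10 the SKR6LR and SKR6 arrays did not overlap, which held for 57.9% of all genes.

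ERBB2, the receptor gene the locus is named for, had 12.55, 12.39 and 12.40 in SKR6LR, against 13.80, 13.85 and 13.84 in SKR6. The difference was -1.38 (SE 0.0614, adjusted p = 6.88e-10, limma). The other ERBB2 probe sets, an _x_at and an _s_at set, gave -2.02 and -1.87, so the size of its fall depends on the probe set.

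GRB7 encodes an adaptor that binds phosphorylated ERBB2 through its SH2 domain. Its values were 8.84, 9.34 and 8.45 in SKR6LR, against 10.14, 10.22 and 10.13 in SKR6. All SKR6LR arrays were low, but they were spread over a wider range than those of any other line. The means were 8.88 ± 0.445 in SKR6LR and 10.16 ± 0.0456 in SKR6 (SD, n = 3 each), a difference of -1.28 (SE 0.156, adjusted p = 1.43e-05, limma), or 2.43-fold lower. Leaving out any 1 array moved it between -1.51 and -1.07. MIEN1, which promotes cell migration and invasion, had 13.18, 13.27 and 12.99 in SKR6LR, against 13.89, 13.87 and 13.91 in SKR6. It fell by 0.75 (SE 0.0706, adjusted p = 1.26e-06, limma), with no overlap between the lines.

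The lipid and membrane genes all fell. STARD3, a cholesterol transporter of late endosomes, had 10.01, 10.20 and 9.67 in SKR6LR, against 10.99, 10.96 and 10.98 in SKR6. The SKR6LR arrays lay apart from SKR6 and lower, with replicate 3 the lowest. The difference was -1.02 (SE 0.105, adjusted p = 2.87e-06, limma), or 2.03-fold lower. Replicate 3, the array with the highest actin 3′ minus 5′ value, was also lowest for GRB7, and without it the differences were -0.88 for STARD3 and -1.07 for GRB7. The part of RNA quality in these falls was not tested. PGAP3, an enzyme that remodels the lipid of GPI anchors, had 10.71, 10.42 and 10.65 in SKR6LR, against 11.16, 11.10 and 11.09 in SKR6. Its fall was 0.52 (SE 0.0752, adjusted p = 6.92e-05, limma), and its other probe set fell by 0.45. ORMDL3 is an endoplasmic reticulum protein that restrains sphingolipid synthesis and lies at the far end of the group. It had 10.07, 10.49 and 10.28 in SKR6LR, against 10.72, 10.71 and 10.78 in SKR6, lower on every SKR6LR array. It fell by 0.46 (SE 0.0943, adjusted p = 0.00128, limma), and its other probe set fell by 0.62.

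TCAP, PNMT and PPP1R1B are known from other tissues, and here they had levels between 5.85 and 7.57 in the lines compared. TCAP, the titin cap of the muscle Z-disc, had 6.87, 6.72 and 6.84 in SKR6LR, against 7.44, 7.56 and 7.57 in SKR6. It fell by 0.71 (SE 0.0635, adjusted p = 6.88e-07, limma), and the lines did not overlap. PNMT, which makes adrenaline from noradrenaline, had 6.55, 6.35 and 6.14 in SKR6LR, against 6.70, 6.73 and 6.74 in SKR6. It showed the smallest fall of the 9, 0.38 (SE 0.0900, adjusted p = 0.00365, limma). Without SKR6LR replicate 3 the difference was -0.27, with the call kept. PPP1R1B (DARPP-32), a regulator of protein phosphatase 1 in dopamine-responsive neurons, had 5.85, 6.89 and 6.19 in SKR6LR, against 6.89, 6.92 and 7.02 in SKR6. Replicate 2 of SKR6LR thus lay just below the lowest SKR6 array, and the other SKR6LR arrays clearly below it. The fall of 0.63 (SE 0.192, adjusted p = 0.0161, limma) lost its call without SKR6LR replicate 1 (-0.40, adjusted p = 0.0636), without SKR6LR replicate 3 (-0.58, adjusted p = 0.0574) and without SKR6 replicate 3 (-0.60, adjusted p = 0.0527).

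Markers of those tissues did not share 1 direction. Of 5 skeletal muscle markers, ACTA1 (6.01) and CKM (0.25) were higher in SKR6LR and none lower, with summed levels of 30.5 to 31.0 in SKR6LR and 24.1 to 24.8 in SKR6. Of 5 chromaffin and neuronal markers, TH was lower (-4.86), CHGA (0.44) and DRD1 (0.22) were higher, and the summed level was 23.2 to 23.8 in SKR6LR and 27.7 to 28.1 in SKR6. Their part in the falls of TCAP, PNMT and PPP1R1B was not tested.

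GSDMB and IKZF3 lie side by side apart from ZPBP2 and moved in opposite directions. GSDMB, a gasdermin whose cleaved form makes membrane pores, had 12.70, 12.65 and 12.63 in SKR6LR, against 13.31, 13.30 and 13.38 in SKR6. Its fall was 0.67 (SE 0.0571, adjusted p = 4.46e-07, limma), and the other 2 probe sets gave -0.71 and -0.45. IKZF3 (Aiolos), a zinc finger factor of B cell development, had 8.61, 10.06 and 8.95 in SKR6LR, against 6.64, 6.47 and 6.59 in SKR6. Every SKR6LR array was above every SKR6 array, and replicate 2 was by far the highest. The difference was 2.64 (SE 0.261, adjusted p = 1.95e-06, limma), or 6.22-fold higher in SKR6LR, and it was 2.21 without that replicate. The other IKZF3 probe sets had 7.50, 8.69 and 7.66 in SKR6LR against 4.57, 4.90 and 4.90 in SKR6, and 5.86, 7.35 and 4.79 in SKR6LR against 3.96, 3.76 and 3.80 in SKR6. Their differences were 3.16 and 2.16, with replicate 2 highest on both.

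No lymphoid marker moved with IKZF3. Of 11 lymphoid markers 10 were measured, and 0 were called higher and 0 lower in SKR6LR by limma, also at an unadjusted p under 0.05. PTPRC (CD45), the defining surface marker of leukocytes, stood at 4.22 in SKR6LR and 4.16 in SKR6, and the B cell marker MS4A1 (CD20) at 4.37 in SKR6LR and 4.39 in SKR6. The summed level of the 10 was 54.4 to 55.5 in SKR6LR and 55.0 to 55.6 in SKR6. Of 6 fibroblast markers only COL3A1 was called, higher by 4.92.

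**Figure D2:**
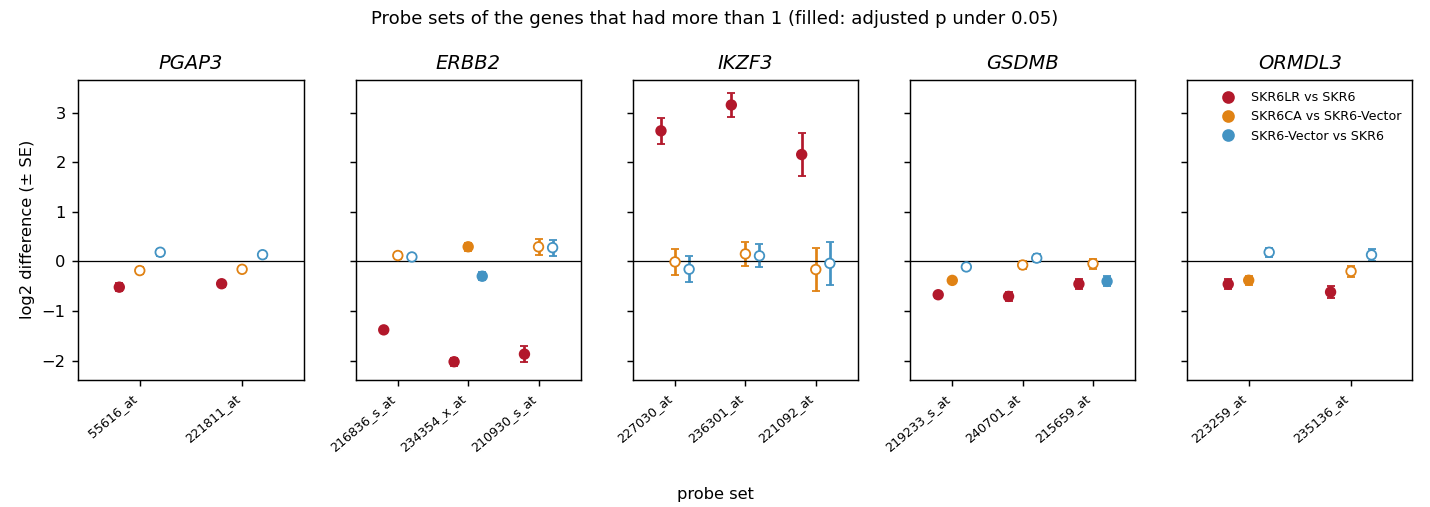
Log2 difference ± SE (vertical axis) of every probe set of the 5 genes that had more than 1, ERBB2 among them, in 3 comparisons marked by colour; filled circles have an adjusted p under 0.05. In SKR6LR against SKR6 all probe sets of a gene shifted the same way, while the fall of GSDMB with active p65 (-0.38) was called for 1 of its 3 probe sets.

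Of the 16 probe sets of the 10 genes, 13 were lower in SKR6LR and 3, all of IKZF3, were higher, so that no gene had probe sets of opposite direction there, beside 24.9% of all probe sets lower and 19% higher.

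How far each neighbour moved from ERBB2 was measured as its value minus that of ERBB2 on the same array. In SKR6LR against SKR6, 9 of the 10 genes were higher relative to ERBB2 and GRB7 was not called. That share says little of the locus, because ERBB2 itself fell more than most genes: 93.6% of all genes were higher relative to it. STARD3 gained 0.36 on ERBB2 (SE 0.110, adjusted p = 0.00561, limma), MIEN1 0.63, TCAP 0.67, GSDMB 0.71, PPP1R1B 0.75, PGAP3 0.86, ORMDL3 0.92, PNMT 1.00 and IKZF3 4.02. GRB7 differed from ERBB2 by 0.098 (SE 0.161, adjusted p = 0.555, limma), and the 95% interval of that difference ran from -0.25 to 0.44. The closeness of GRB7 and ERBB2 holds for 1 ERBB2 probe set. Against the _x_at set, GRB7 was higher by 0.74 (adjusted p = 0.00124, limma), and against the other _s_at set by 0.59 (adjusted p = 0.00831, limma), an alternative chosen after the data were seen.

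**Figure D3:**
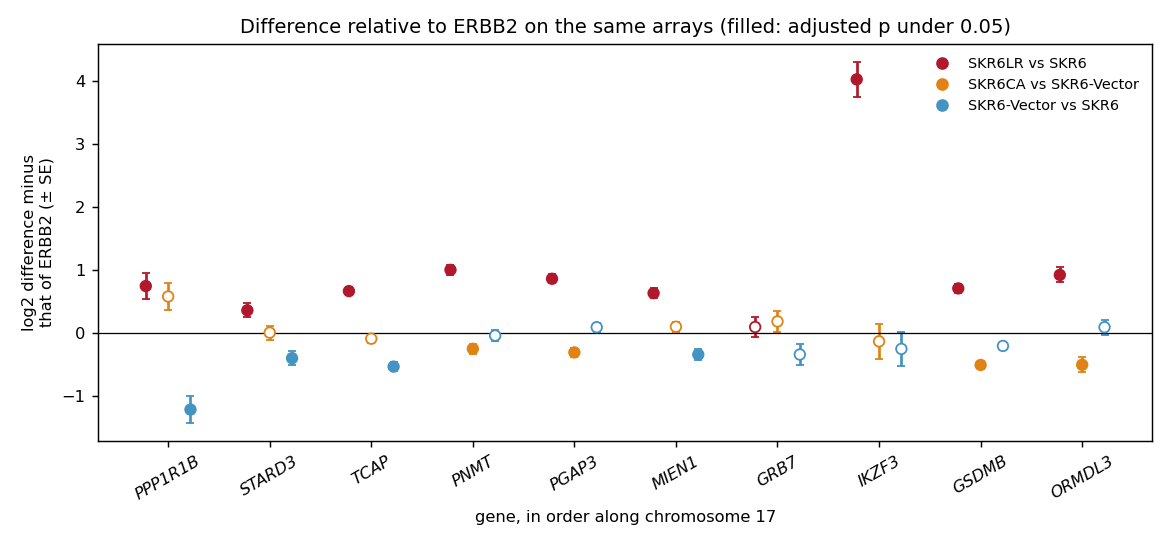
Log2 difference of each of the 10 genes minus that of ERBB2 (its brightest probe set) on the same arrays ± SE (vertical axis), in gene order along chromosome 17, in 3 comparisons marked by colour; filled circles have an adjusted p under 0.05. For SKR6LR against SKR6, GRB7 is near 0 (0.098), 8 genes lie between 0.36 and 1.00, and IKZF3 stands alone at 4.02.

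Position in the row of genes and size of shift did not run in step. On the PPP1R1B side of ERBB2 the differences in order were -0.63, -1.02, -0.71, -0.38 and -0.52, and on the ORMDL3 side -0.75, -1.28, 2.64, -0.67 and -0.46. PNMT and PGAP3, next to ERBB2 in the order, shifted less than STARD3, which is farther out. ZPBP2, a sperm zona pellucida binding protein gene between IKZF3 and GSDMB, was at 4.06 in SKR6LR and 3.94 in SKR6, near the low end of the array, with a difference of 0.13 (adjusted p = 0.151, limma).

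To see how far the shift reached, 30 measured genes on each side of ERBB2 were described the same way. Of these 60 genes, the 10 members included, 30 were lower and 10 higher in SKR6LR, with a median difference of -0.22. Without the members, 21 of 50 were lower (42%) and 9 higher (18%), with a median of -0.17. Over all genes 29.8% were lower and 20.8% higher, with a median of -0.058. Of the 25 genes beyond PPP1R1B, 9 were lower and 6 higher (median -0.12), and of the 24 beyond ORMDL3, 12 were lower and 3 higher (median -0.26). In the rest of chromosome 17, 374 of 1065 genes were lower (35.1%) and 156 higher (14.6%), with a median of -0.098. The members had the lowest median of these groups, and they were picked with such results known. All 10 members lay above the median level of the table, against 36 of the 50 other window genes and 715 of the 1065 in the rest of chromosome 17. The groups are thus not matched in level.

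Outside the 10 genes, the falls that were largest in the window were those of THRA (-1.46), a thyroid hormone receptor, KRT10-AS1 (-1.34), an antisense transcript of the keratin gene KRT10, and RARA (-1.21), a retinoic acid receptor. THRA had 7.12, 6.79 and 7.11 in SKR6LR, against 8.46, 8.49 and 8.45 in SKR6 (adjusted p = 1.12e-08, limma). THRA and NR1D1 overlap on opposite strands, as do KRT10 and KRT10-AS1, so their probe sets are reported as uncertain. The largest rises were those of TNS4 (3.12), a focal adhesion protein, EPOP (2.18), a Polycomb-associated protein, and the keratin KRT20 (1.55). TNS4 had 10.17, 10.53 and 10.40 in SKR6LR, against 7.29, 7.25 and 7.21 in SKR6 (adjusted p = 8.34e-12, limma). IKZF3 was thus not the only riser in the region, though the only one among the 10. TOP2A and CDC6, replication and division genes often gained with ERBB2 and named after their values were seen, fell by 1.06 and 1.04.

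**Figure D4:**
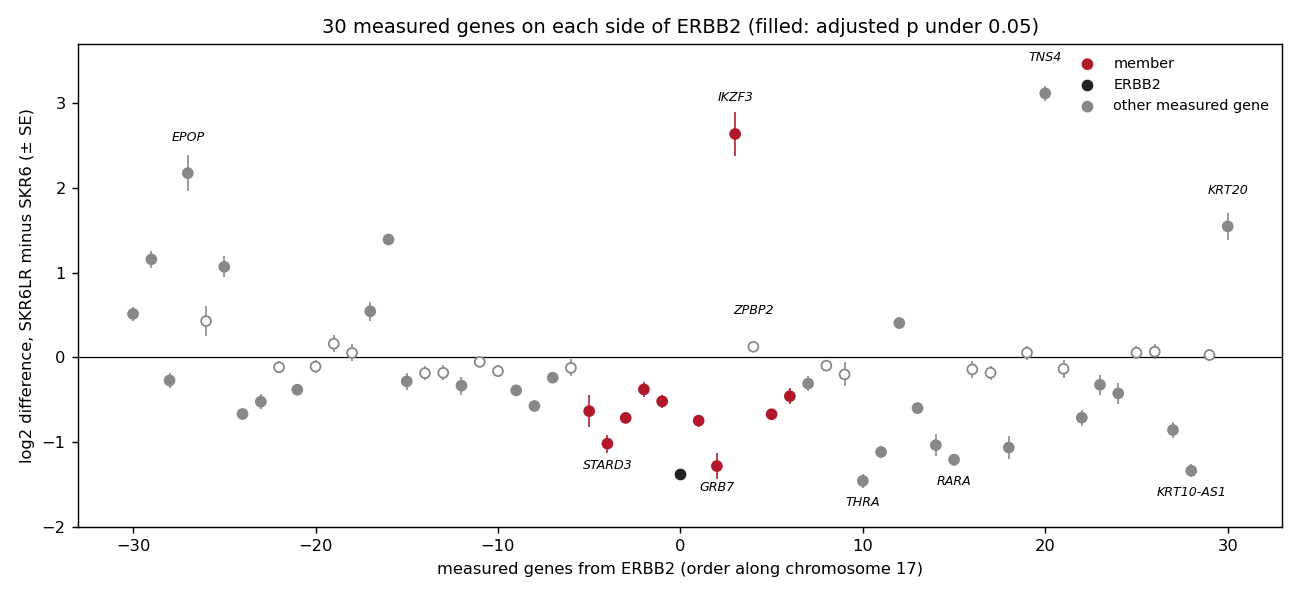
Log2 difference of SKR6LR minus SKR6 ± SE (vertical axis) for ERBB2 and 30 measured genes on each side, by their place in the gene order (horizontal axis, number of measured genes from ERBB2); filled circles have an adjusted p under 0.05. The 9 members that fell lie between -1.28 and -0.38, beside IKZF3 at 2.64, and THRA (-1.46) and RARA (-1.21) stand on the ORMDL3 side of ERBB2 (-1.38).

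The second comparison, SKR6CA with SKR6-Vector, addressed the effect of active p65 over that of the empty vector. GSDMB and ORMDL3 fell, MIEN1 and PPP1R1B rose, and 6 genes were not called. That is 4 of 10, with 24.4% of all genes called (13.8% lower, 10.6% higher), and a median difference of 0.012 against 0.0033 over all genes. The members went both ways, and their median absolute difference was 0.204, against 0.120 over all genes. The arrays did not overlap for 7 of the 10, and for 45.5% of all genes.

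GSDMB had 12.84, 12.86 and 12.81 in SKR6CA, against 13.17, 13.24 and 13.25 in SKR6-Vector, all lower with active p65. Its difference was -0.38 (SE 0.0571, adjusted p = 0.000352, limma), yet the other probe sets gave -0.072 (adjusted p = 0.678) and -0.044 (adjusted p = 0.845), and their mean with the first -0.17 (adjusted p = 0.0707). The call rests on 1 probe set, an _s_at set, whose probes can match more than 1 transcript. ORMDL3 had 10.65, 10.55 and 10.43 in SKR6CA, against 10.90, 10.93 and 10.95 in SKR6-Vector, with no overlap. It fell by 0.38 (SE 0.0943, adjusted p = 0.0118, limma), a call lost without SKR6CA replicate 3 (-0.32, adjusted p = 0.0583).

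MIEN1 had 13.88, 13.84 and 13.87 in SKR6CA, against 13.64, 13.64 and 13.65 in SKR6-Vector, a small and even gap. It rose by 0.22 (SE 0.0706, adjusted p = 0.0426, limma). Without any 1 array of SKR6CA, SKR6-Vector or SKR6 the difference stayed between 0.21 and 0.24, but the call was lost, with an adjusted p of up to 0.111. PPP1R1B had 6.60, 6.50 and 6.48 in SKR6CA, against 5.80, 5.66 and 6.02 in SKR6-Vector. It rose by 0.70 (SE 0.192, adjusted p = 0.0205, limma). The call was lost without SKR6-Vector replicate 1 (0.69, adjusted p = 0.0629) or 2 (0.62, adjusted p = 0.0863), and without SKR6CA replicate 1 (0.67, adjusted p = 0.0720), 2 (0.71, adjusted p = 0.0522) or 3 (0.72, adjusted p = 0.0502).

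Of the core from STARD3 to GRB7, only MIEN1 was called. GRB7 had 10.27, 10.20 and 10.20 in SKR6CA, against 9.87, 9.94 and 9.95 in SKR6-Vector. These arrays did not overlap, and the difference of 0.31 had an SE of 0.156 (adjusted p = 0.229, limma) that includes the wide spread of GRB7 in SKR6LR. Without SKR6LR replicate 2, which enters only through that spread, the adjusted p was 0.0227, and with the 6 compared arrays alone it was 0.00477. STARD3 differed by 0.13 (adjusted p = 0.496, limma) and PGAP3 by -0.18 (adjusted p = 0.120, limma). PGAP3 was called without SKR6LR replicate 2 (adjusted p = 0.0296). TCAP differed by 0.03, PNMT by -0.13 and IKZF3 by -0.0086, all not called. ERBB2 differed by 0.12 (adjusted p = 0.229, limma), and by 0.24 (adjusted p = 0.0250) as the mean of its probe sets. Relative to ERBB2, PNMT (-0.25), PGAP3 (-0.30), GSDMB (-0.50) and ORMDL3 (-0.50) were lower in SKR6CA, 4 of 10 beside 20.7% of all genes. Against the other _s_at set of ERBB2 the calls of PNMT and PGAP3 were lost.

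The third comparison, SKR6-Vector with SKR6, measured what came with the vector and the selection. PPP1R1B, TCAP and MIEN1 fell, 0 genes rose (1 at an unadjusted p under 0.05, limma) and 7 were not called, with 11.7% of all genes lower and 11.2% higher. PPP1R1B had 5.80, 5.66 and 6.02 in SKR6-Vector, against 6.89, 6.92 and 7.02 in SKR6, and fell by 1.12 (SE 0.192, adjusted p = 0.00120, limma). Its difference in SKR6LR was -0.63, and the arrays of SKR6LR and SKR6-Vector overlapped. TCAP had 7.07, 7.07 and 7.12 in SKR6-Vector, against 7.44, 7.56 and 7.57 in SKR6, and fell by 0.44 (SE 0.0635, adjusted p = 0.000326, limma). Neither gene's SKR6-Vector arrays overlapped those of SKR6. MIEN1 fell by 0.25 (SE 0.0706, adjusted p = 0.0292, limma). That call was lost without any 1 array of SKR6-Vector or SKR6, with an adjusted p of up to 0.0908 and a difference of -0.25 to -0.24. STARD3 differed by -0.30 (adjusted p = 0.0671, limma). It was called without SKR6LR replicate 2 (adjusted p = 0.0166) or 3 (adjusted p = 0.00760), and PGAP3, at 0.19, without replicate 2 (adjusted p = 0.0304). The arrays did not overlap for 8 of the 10 genes, and for 48.2% of all genes. Relative to ERBB2, PPP1R1B (-1.21), TCAP (-0.53), STARD3 (-0.40) and MIEN1 (-0.34) were lower in SKR6-Vector, 4 of 10 beside 17.5% of all genes. These calls depend on the ERBB2 probe set. Against the _x_at set, PPP1R1B (-0.82) alone was lower, STARD3 (-0.0063), TCAP (-0.14) and MIEN1 (0.05) were not called, and PNMT (0.35), PGAP3 (0.48) and ORMDL3 (0.48) were higher. Against the other _s_at set only PPP1R1B (-1.40) and TCAP (-0.72) were lower.

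**Figure D5:**
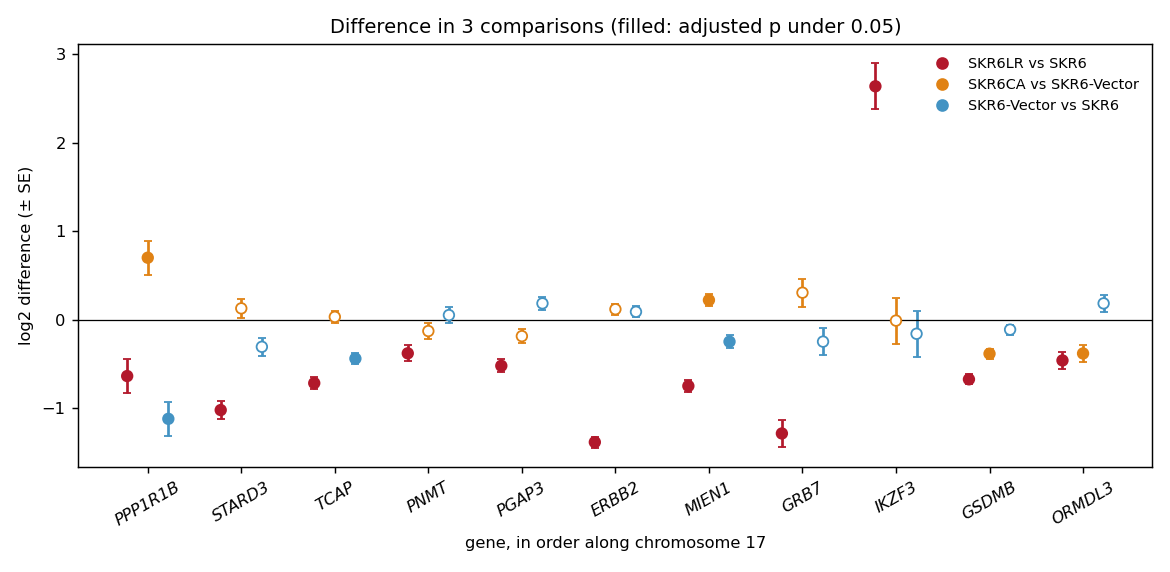
Log2 difference ± SE (vertical axis) of the 10 genes and ERBB2, in gene order along chromosome 17, in 3 comparisons marked by colour; filled circles have an adjusted p under 0.05. The shifts of SKR6LR against SKR6 reach from -1.38 (ERBB2) to 2.64 (IKZF3), while those of the other comparisons lie between -1.12 and 0.70, both in PPP1R1B.

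These comparisons share the SKR6-Vector arrays, so a low vector value lowers one difference and raises the other. Set against SKR6 instead, SKR6CA had TCAP (-0.40, adjusted p = 0.000735) and GSDMB (-0.49, adjusted p = 6.95e-05) lower by limma and 0 of the 10 higher (0 also at an unadjusted p under 0.05), with 12.9% of all genes lower and 8.87% higher. MIEN1 (-0.023, adjusted p = 0.889) and PPP1R1B (-0.42, adjusted p = 0.183) then lost their call and turned direction. ORMDL3 (-0.19, adjusted p = 0.210) lost its call. ERBB2, at 0.21 (adjusted p = 0.0321, limma), was called higher against SKR6 by its brightest probe set. Its other _s_at set was also higher (0.57, adjusted p = 0.0269, limma), but its _x_at set was not called (-0.0014, adjusted p = 0.995, limma). GSDMB was the only gene of the 10 called lower in SKR6CA against both control lines, through its brightest probe set. Another GSDMB probe set was called lower against SKR6 (-0.45, adjusted p = 0.00722, limma) and not against SKR6-Vector (-0.044), and it was lower in SKR6-Vector against SKR6 (-0.40, adjusted p = 0.0123, limma).

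Whether a gene shifted differently with lapatinib selection and with active p65 was tested as the difference between both effects. For 7 genes it was negative and called, for IKZF3 positive and called, and for PNMT (-0.25, adjusted p = 0.152) and ORMDL3 (-0.079, adjusted p = 0.704) it was not called by limma. That is 8 of 10, and 43.4% of all genes were called in this test (24.4% lower, 19% higher). It was -1.59 for GRB7, -1.34 for PPP1R1B and -1.15 for STARD3. With SKR6 as the control of both lines, an alternative chosen after the data were seen, it was -0.22 for PPP1R1B and no longer called (adjusted p = 0.416, limma). It was then -0.31 for TCAP (adjusted p = 0.00132, limma), against -0.75 with SKR6-Vector, and PNMT (-0.31) and ORMDL3 (-0.26) were called. The test with that control called 48.1% of all genes. The difference for PGAP3 (-0.33, adjusted p = 0.0252, limma) lost its call without SKR6 replicate 1, SKR6-Vector replicate 1 or 3, or SKR6CA replicate 1 or 3 (adjusted p up to 0.0611), and PNMT gained one without SKR6LR replicate 1 (-0.35, adjusted p = 0.0175). ORMDL3 was lower in both SKR6LR against SKR6 (-0.46) and SKR6CA against SKR6-Vector (-0.38). GSDMB was lower in both as well (-0.67 in SKR6LR and -0.38 in SKR6CA, against the same controls). With SKR6 as the control of SKR6CA, GSDMB was -0.49 and called, and ORMDL3 was -0.19 and not called (adjusted p = 0.210, limma).

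The order of the 4 lines was not the same for all genes. SKR6LR was lowest for 8 of the 10 genes, though its arrays overlapped those of SKR6CA for ORMDL3. The share of all genes with SKR6LR lowest was not computed, so this count stands without it. From low to high, the GRB7 means were 8.88 in SKR6LR, 9.92 in SKR6-Vector, 10.16 in SKR6 and 10.22 in SKR6CA, with SKR6CA and SKR6 overlapping. For STARD3 they were 9.96 in SKR6LR, 10.67 in SKR6-Vector, 10.80 in SKR6CA and 10.98 in SKR6, with no overlap from each line to the next. PPP1R1B was lowest in SKR6-Vector (5.83 ± 0.185), whose arrays overlapped those of SKR6LR (6.31 ± 0.528). IKZF3 was highest in SKR6LR (9.21 ± 0.757), and the arrays of SKR6CA (6.40 ± 0.136), SKR6-Vector (6.41 ± 0.111) and SKR6 (6.57 ± 0.0865) overlapped from each of these lines to the next. ERBB2 was lowest in SKR6LR (12.45 ± 0.0907), then SKR6 (13.83 ± 0.0235), SKR6-Vector (13.92 ± 0.00454) and SKR6CA (14.04 ± 0.0324, SD, n = 3 each), without overlap. The order of the upper lines differed on its _x_at probe set, with means of 6.78 in SKR6LR, 8.51 in SKR6-Vector, 8.80 in SKR6CA and 8.80 in SKR6.

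The genes whose profile over the 12 arrays was most like that of GRB7 were not its neighbours. By the root mean square difference of centred log2 values, the closest of 19774 genes were CYB561 (0.130), MRPL38 (0.135), SIGIRR (0.144), IL10RB (0.149) and TMEM263 (0.152). CYB561 and MRPL38 are on chromosome 17, and SIGIRR, IL10RB and TMEM263 are on chromosomes 11, 21 and 12. STARD3 ranked 43 (0.203), ERBB2 209 (0.253) and MIEN1 396 (0.279), while IKZF3 ranked 19310. The measure takes all 12 arrays together, and these genes share every array.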

How the data were processed

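Per the labels' protocols, total RNA of 12 cultures was primed with oligo-dT, and biotin-labelled copies made by T7 polymerase were measured on 3′ expression arrays. The values used were log2 values that the authors deposited in 1 table of 54675 probe sets. RMA and limma are named in the submitters' processing notes without version or parameters. RMA scales all arrays to 1 distribution and compresses differences near background, and the table has no detection calls. The number of arrays limits the precision.

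Gene names came from the platform annotation, updated where gene IDs matched a RefSeq table (GRCh38.p14). That table also gave the gene order, by start position. Of the probe sets, 41097 had 1 gene, 1801 several and 11777 none; IDs matched for 41043 and 54 kept an older symbol. Limma 3.58.1 in R 4.3.3 (lmFit, eBayes) was run on all probe sets and all 12 arrays with a mean per line and no filter. P-values had Benjamini-Hochberg adjustment over all probe sets, with a call at an adjusted p under 0.05, and measure the spread among cultures, pooled over the 4 lines. The same fit was run on values minus ERBB2.

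The 10 genes, the gene and marker lists and the tests were chosen with earlier results of these data known. Named genes were the members, ERBB2, the 3 largest called falls and rises in the window, genes between members, and the 5 genes nearest GRB7; others are marked in the text. Shared replicate numbers did not pair the samples: in 0 of 18 same-numbered pairs of lines did deviations from the line means correlate above 0.1 (range -0.0955 to 0.0696). On simulated data with 200 of 54675 probe sets changed, the SKR6LR against SKR6 test found 95% of changes of 1 and 52% of changes of 0.5. Of its calls 3.29% were false, and 6.06% of those of SKR6CA against SKR6-Vector. The simulation gave all 4 lines the same spread. It therefore cannot show how the wider spread of the SKR6LR replicates affects the share of false calls. The simulation also changed far fewer probe sets than were called in SKR6LR against SKR6 (24.9% lower and 19% higher). Its shares of changes found and of false calls therefore need not hold there. Alternatives were the replicate block, cyclic loess, median centring, each array left out, a trend with robust eBayes, array and line weights, only the compared arrays, a filter, 1 probe set per gene, the mean of probe sets, no _s_at or _x_at sets, an adjusted p under 0.01, SKR6 as control for SKR6CA, and other ERBB2 probe sets.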

Additional observations from a re-analysis of the deposited data

Results flagged for a closer look

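For 8 of the 10 genes the effect of lapatinib selection (SKR6LR minus SKR6) and that of active p65 (SKR6CA minus SKR6-Vector) differed in a test of the difference itself (limma, adjusted p under 0.05), a test that called 43.4% of all genes. The difference between both effects, on the log2 scale, was -1.59 for the adaptor GRB7, -0.97 for MIEN1, -1.15 for the cholesterol transporter STARD3 and -0.33 for PGAP3. It was -0.75 for TCAP, -1.34 for PPP1R1B, -0.29 for the gasdermin GSDMB and 2.65 for the lymphoid factor IKZF3. For GRB7, MIEN1, STARD3, TCAP and PPP1R1B the effect was negative in SKR6LR against SKR6 and positive or near 0 in SKR6CA against SKR6-Vector. Against SKR6, the effect in SKR6CA was -0.42 for PPP1R1B, -0.40 for TCAP, -0.17 for STARD3, -0.023 for MIEN1 and 0.061 for GRB7. With SKR6 as control of both lines the difference between effects was -0.22 for PPP1R1B, not called (adjusted p = 0.416, limma). It was then -0.31 for TCAP, -0.84 for STARD3, -0.72 for MIEN1 and -1.34 for GRB7. For GSDMB and PGAP3 both effects were negative and the first was larger. The effect of active p65 on PGAP3 (-0.18, adjusted p = 0.120, limma) was not called, and against SKR6 it was 0.0020 (adjusted p = 0.992, limma). For GSDMB it was -0.38 on the brightest probe set, but -0.072 and -0.044 on the others, not called. Against SKR6 the brightest set gave -0.49. With cyclic loess scaling the difference between effects was -0.18 for PGAP3 (adjusted p = 0.234) and -0.12 for GSDMB (adjusted p = 0.260), and neither was called.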

How the results depend on the processing

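Of 1001 values of single genes under an alternative, 915 kept direction and call, 45 lost a call, 31 gained one, 3 turned direction with a call on either side and 7 turned direction without any. In SKR6LR against SKR6, 9 to 10 genes were called under every alternative, PPP1R1B being the gene lost. Genes called in the difference of effects numbered 6 to 9, and those in the window 36 to 41. With the replicate block 10, 3, 3 and 8 genes were called in SKR6LR against SKR6, SKR6CA against SKR6-Vector, SKR6-Vector against SKR6 and the difference of effects; MIEN1 lost its call with active p65 (adjusted p = 0.0648) and no other of these calls of the 10 genes changed. The 4 calls in SKR6CA against SKR6-Vector became 1 at an adjusted p under 0.01, 2 with SKR6 as control (where MIEN1 was -0.023, TCAP -0.40 and PPP1R1B -0.42), and 1 to 6 when 1 array was left out. The 3 calls in SKR6-Vector against SKR6 became 6 with array weights, 5 with line weights, 7 with only the compared arrays, 5 with the mean of probe sets and 2 to 5 when 1 array was left out. Relative to ERBB2, its other _s_at probe set left 2 calls in place of 4 in SKR6CA and 2 in place of 4 in SKR6-Vector. Its _x_at set gave 4 calls in SKR6-Vector as well, but 3 higher and 1 lower in place of 4 lower. For most of these alternatives the share of all genes called was not computed, so the counts of the 10 genes stand without it. Causes were not tested. MIEN1 and ERBB2 read near the top of the scale and ZPBP2 near its bottom, where arrays measure differences less well.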
